A study of Rattus norvegicus with 9 samples.

Results

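Blood endothelial identity genes encode the transcription factor, junction proteins, growth factor receptors and secreted factors by which the lining of blood vessels is recognised. The rule for this set names 10 rat genes by symbol: Pecam1, Erg, Esam, Egfl7, Cdh5, Tie1, Tek, Kdr, Vwf and Cldn5. Of these, 9 were found among the 30452 features counted in each library, each on 1 line, and Cldn5 is not analysed here. The study set adult rat offspring aged 3 to 5 months whose dams drank 20% sucrose water in pregnancy (high-sucrose) against offspring whose dams drank ordinary water (control), with all dams on a standard diet. There were 3 groups of 3 poly(A) RNA libraries, 9 in all. The pulmonary group came from control offspring and holds replicates 1, 2 and 4. The mesenteric groups, high-sucrose and control, hold replicates 1, 2 and 3 each. The arteries were dissected under a microscope and sequenced whole, so each library mixes endothelium with smooth muscle, adventitia and whatever tissue stayed attached. The labels give neither the strain nor whether an artery came from 1 animal or from a pool.

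The endothelium is a single cell layer on the inner face of an artery. Its cells are held together by VE-cadherin (Cdh5), PECAM-1 (Pecam1) and ESAM (Esam). Angiopoietin signalling through the receptor TIE2 (Tek) and its partner TIE1 (Tie1) keeps them in a mature, quiescent state. VEGF signals to them through VEGFR2 (Kdr). The ETS factor ERG (Erg) keeps many endothelial genes active in adult vessels. EGFL7 (Egfl7) and von Willebrand factor (Vwf) are secreted, the first into the matrix under the cells and the second from storage granules during clotting. Several of these genes are also made by other cells of the blood, above all Vwf, Pecam1 and Esam by platelets and their precursors.

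Promoter sequence was available from RefSeq (build GRCr8, which is not the rn7 build of the count tables) for 4 of the 9 genes. It is shown because 1 of the genes, Erg, encodes a factor that binds the ETS core motif, and the genes shown include Erg and Egfl7, whose pulmonary values lay below all mesenteric ones, and Tie1 and Kdr, whose values overlapped. Each line gives the 250 bases before the RefSeq start, 5′ to 3′ on the strand of the gene, with matches to the ETS motifs AGGAAG and CGGAAG in capitals on either strand.
Erg, chr11:48251567-48251816, minus strand: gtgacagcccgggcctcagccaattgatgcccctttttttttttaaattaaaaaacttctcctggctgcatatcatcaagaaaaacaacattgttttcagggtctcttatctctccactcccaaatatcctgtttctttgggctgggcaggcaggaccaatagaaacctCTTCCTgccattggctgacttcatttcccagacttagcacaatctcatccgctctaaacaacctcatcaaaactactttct
Egfl7, first of 2 starts, chr3:29805381-29805630, plus strand: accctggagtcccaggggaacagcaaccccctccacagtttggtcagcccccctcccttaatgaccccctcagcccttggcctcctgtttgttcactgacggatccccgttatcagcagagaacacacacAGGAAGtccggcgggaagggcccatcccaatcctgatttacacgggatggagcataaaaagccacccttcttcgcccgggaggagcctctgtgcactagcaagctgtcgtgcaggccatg
Tie1, chr5:137304982-137305231, minus strand: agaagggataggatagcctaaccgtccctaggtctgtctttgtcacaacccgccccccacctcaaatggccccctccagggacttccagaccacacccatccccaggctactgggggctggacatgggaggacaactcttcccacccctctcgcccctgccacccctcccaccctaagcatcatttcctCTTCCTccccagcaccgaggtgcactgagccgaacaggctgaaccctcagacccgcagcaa
Kdr, chr14:32571813-32572062, plus strand: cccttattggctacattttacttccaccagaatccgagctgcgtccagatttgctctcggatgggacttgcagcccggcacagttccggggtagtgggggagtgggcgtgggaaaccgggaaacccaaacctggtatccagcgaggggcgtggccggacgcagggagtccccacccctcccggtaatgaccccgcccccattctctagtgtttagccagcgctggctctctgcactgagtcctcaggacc

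AGGAAG occurred once in the Erg, Tie1 and first Egfl7 windows, in Erg and Tie1 on the opposite strand, printed as CTTCCT. The first printed base of the match was 81, 61 and 120 bases before the start. AGGAAG was in neither the Kdr window nor the window of the second Egfl7 start. Of all 33469 RefSeq rat windows of this length, 29.5% held AGGAAG and 13.9% held CGGAAG, which was in none of the 5 windows. The GC box GGGCGG, which 30.5% of all windows held, occurred once each for Tie1 and Kdr and 4 times before the second start of Egfl7. The windows were 43.2% GC for Erg and 61.6% GC for both Tie1 and Kdr, against a median of 51.2% over all windows. These matches describe the letters of the windows and are not measured binding sites.

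The Egfl7 gene also holds the microRNA miR-126 in its span, a microRNA known for its part in endothelial VEGF signalling. Its mature strands are shown because Egfl7 had the most negative log2 fold change of the set between the arteries. They are given with the seed (bases 2 to 8) in capitals.
rno-miR-126a-3p: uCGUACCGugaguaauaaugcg
rno-miR-126a-5p: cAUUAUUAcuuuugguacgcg
The poly(A) libraries count messenger RNA of the host gene and give no level for the mature strands.

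Total counts per library ran from 10388231 to 15420546, and single members from 110 counts (Kdr, pulmonary replicate 1) to 16417 counts (Vwf, mesenteric control replicate 2). At 110 counts the counting error alone is 9.53%. CPM, each gene's share of its library's counts on a common scale, on totals scaled by TMM, a factor that aligns the bulk of genes between libraries, are used for all levels below. Smooth muscle, lymphocyte, epithelial and heart genes set 3 libraries apart. In pulmonary replicate 4 all 11 lymphocyte markers (summed level 2151 CPM, against 16.3 to 47.5 CPM elsewhere) and all 8 lung epithelium markers (745 CPM) peaked, and all 12 contractile genes were at their lowest (4586 CPM). All 10 heart muscle markers peaked in pulmonary replicate 2 (22553 CPM). Mesenteric control replicate 2 had the lowest contractile sum of the 6 mesenteric libraries (15985 CPM, against 24192 to 54909 CPM). Prox1, the transcription factor that defines lymphatic endothelium, was at 0.387 to 3.87 CPM in the 9 libraries.

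Pulmonary artery was set against mesenteric artery in control offspring to ask which genes differ between the vascular beds. All 9 members had a negative log2 fold change, as did 45.5% of all genes tested, from −1.83 for Egfl7 to −0.03 for Kdr, with a median of −1.19 against 0.06 over all 14315 genes tested. The pulmonary libraries lay wholly below the mesenteric controls for Erg, Pecam1, Esam, Tek and Egfl7, 5 of 9 members, where 7.59% of all genes tested showed the same separation. No member lay wholly above them, where 6.41% of all genes did. Levels of Cdh5, Tie1, Kdr and Vwf overlapped. No member passed the edgeR test at an adjusted p under 0.05 (0 of 9, where 0.0140% of all genes passed). At an unadjusted p under 0.05 there were 5 members, all lower, where 8.53% of all genes tested stood at that level and 4.30% were lower. DESeq2 called 3 members, Erg, Esam and Egfl7, and 2.85% of all genes (1.64% lower). In whole arteries a smaller share of endothelial cells and less RNA of a gene per endothelial cell cannot be told apart.

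**Figure D1:**
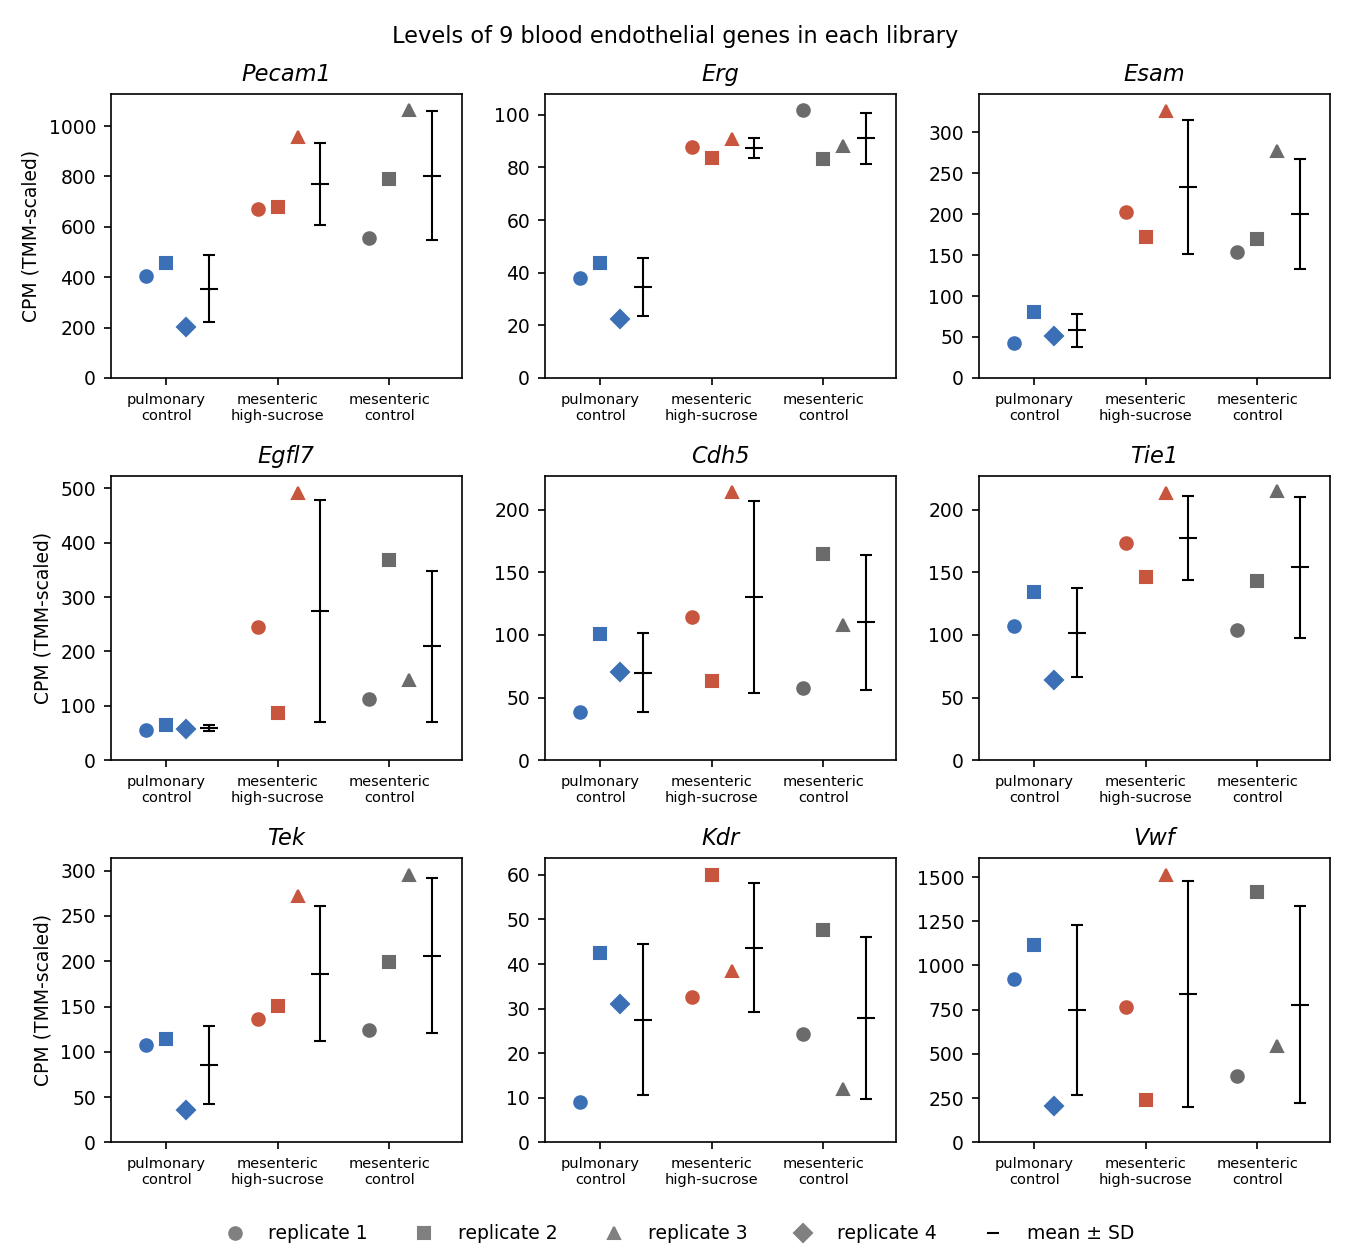
Level of each of the 9 genes in every library, in TMM-scaled CPM on axes that start at 0, for pulmonary control, mesenteric high-sucrose and mesenteric control arteries. Symbols mark replicate numbers and the black bar gives the mean ± SD of 3 libraries. Erg sat between 83.3 and 102 CPM in the 6 mesenteric libraries and between 22.3 and 43.8 CPM in the pulmonary ones, while Vwf spanned 238 to 1511 CPM within mesenteric artery.

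Erg, the ETS transcription factor of endothelium, had 37.9, 43.8 and 22.3 CPM in the pulmonary libraries (replicates 1, 2 and 4), against 102, 83.3 and 88.0 CPM in mesenteric control replicates 1, 2 and 3. Every pulmonary library was thus lower than every mesenteric control, and also than the high-sucrose libraries. The mean was 34.7 ± 11.1 CPM in pulmonary artery and 91.2 ± 9.94 CPM in mesenteric control artery (SD, n = 3 each). Its log2 fold change was −1.40 ± 0.28 (SE), with an adjusted p of 0.274 by edgeR and 0.00416 by DESeq2. With pulmonary replicate 4 left out it was −1.16, without replicate 2 it was −1.61, and with replicate 1 as the only pulmonary library it was −1.29.

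Among the junction genes, Pecam1, an adhesion molecule of the cell border, reached 403, 457 and 203 CPM in pulmonary libraries 1, 2 and 4, against 554, 789.6 and 1064 CPM in mesenteric control replicates 1, 2 and 3. No pulmonary library reached the lowest mesenteric one. Its log2 fold change was −1.19 ± 0.44 (SE, edgeR adjusted p = 0.544), and −0.90 without pulmonary replicate 4.

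Esam, an immunoglobulin-like protein of tight junctions, was at 42.9, 80.2 and 50.9 CPM in the pulmonary libraries, against 154, 169 and 277 CPM in mesenteric control. Here the highest pulmonary library, replicate 2, stayed below the lowest mesenteric control, replicate 1. The log2 fold change was −1.79 ± 0.36 (SE), with an adjusted p of 0.275 by edgeR and 0.00153 by DESeq2. It was −1.70 without pulmonary replicate 4.

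Cdh5, the cadherin of endothelial adherens junctions, was at 38.1, 101 and 70.8 CPM in pulmonary artery, against 57.3, 165 and 108 CPM in mesenteric control. Pulmonary replicates 2 and 4 both lay above mesenteric control replicate 1, so the groups overlapped. Its log2 fold change of −0.66 ± 0.50 (SE, edgeR adjusted p = 0.725) was −0.24 without mesenteric control replicate 2, −1.01 without pulmonary replicate 2 and −0.36 without pulmonary replicate 1. Cdh5 per Pecam1 count was 0.0946, 0.221 and 0.348 in the pulmonary libraries, overlapping 0.103, 0.208 and 0.101 in mesenteric control.

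Of the receptors, Tek, which binds the angiopoietins, reached 107, 114 and 36 CPM in pulmonary libraries 1, 2 and 4, against 124, 199 and 295 CPM in mesenteric control replicates 1, 2 and 3. The groups did not overlap, but pulmonary replicate 2 and mesenteric control replicate 1 were close. The log2 fold change was −1.28 ± 0.52 (SE, edgeR adjusted p = 0.573), and −0.91 without pulmonary replicate 4.

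Tie1, the partner receptor with no strong ligand of its own, was at 107, 134 and 63.8 CPM in pulmonary artery and at 104, 143 and 215 CPM in mesenteric control. Pulmonary replicates 1 and 2 lay inside the mesenteric range and only replicate 4 below it. Its log2 fold change was −0.61 ± 0.39 (SE, edgeR adjusted p = 0.681), −0.36 without pulmonary replicate 4 and −0.30 without mesenteric control replicate 3.

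The pair was also compared within each library, where the scaling of totals plays no part. Tek counts per Tie1 count were 0.994, 0.851 and 0.565 in pulmonary replicates 1, 2 and 4, against 1.20, 1.40 and 1.37 in mesenteric control replicates 1, 2 and 3. All pulmonary ratios were lower than all mesenteric control ratios. In the high-sucrose libraries the ratio was 0.784, 1.03 and 1.28, which overlaps both of the other groups. Tie1 counts per Erg count were 2.83, 3.05 and 2.86 in pulmonary replicates 1, 2 and 4, against 1.01, 1.71 and 2.45 in mesenteric control. They were 1.97, 1.75 and 2.34 in the high-sucrose libraries, so every pulmonary value was higher than every mesenteric one. Other ratios between members were also computed, and in those the pulmonary and mesenteric control values overlapped. The ratios described were chosen after their values were seen and were not tested.

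Kdr, the main signalling receptor for VEGF-A, had the lowest single count of the set, 110 in pulmonary replicate 1. It was at 9.11, 42.4 and 31.0 CPM in pulmonary artery, against 24.2, 47.6 and 11.9 CPM in mesenteric control. Both groups spanned about the same range, with means of 27.5 ± 16.9 and 27.9 ± 18.1 CPM (SD, n = 3 each). The log2 fold change was −0.03 ± 0.68 (SE, edgeR adjusted p = 0.992) and changed sign with single libraries: 0.62 without mesenteric control replicate 2, 0.39 without pulmonary replicate 1 and −0.47 without pulmonary replicate 2.

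Among the secreted factors, Egfl7 reached 55.2, 65 and 57.5 CPM in pulmonary libraries 1, 2 and 4, against 113, 369 and 147 CPM in mesenteric control replicates 1, 2 and 3. The pulmonary libraries were close to each other (coefficient of variation 8.64%) and the mesenteric controls far apart (66.4%). The log2 fold change was −1.83 ± 0.49 (SE), with an adjusted p of 0.420 by edgeR and 0.0254 by DESeq2. It was −1.12 without mesenteric control replicate 2 and −1.81 without pulmonary replicate 4.

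Vwf, the clotting protein that tethers platelets, was at 922, 1117 and 203 CPM in pulmonary artery, against 378, 1413 and 547 CPM in mesenteric control. Pulmonary replicates 1 and 2 lay above 2 of the mesenteric controls and replicate 4 below all of them. Its log2 fold change was −0.09 ± 0.76 (SE, edgeR adjusted p = 0.976), 0.38 without pulmonary replicate 4 and 0.69 without mesenteric control replicate 2. Per Pecam1 count, Vwf stood at 2.29, 2.45 and 0.999 in the pulmonary libraries and at 0.682, 1.79 and 0.514 in mesenteric control.

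**Figure D2:**
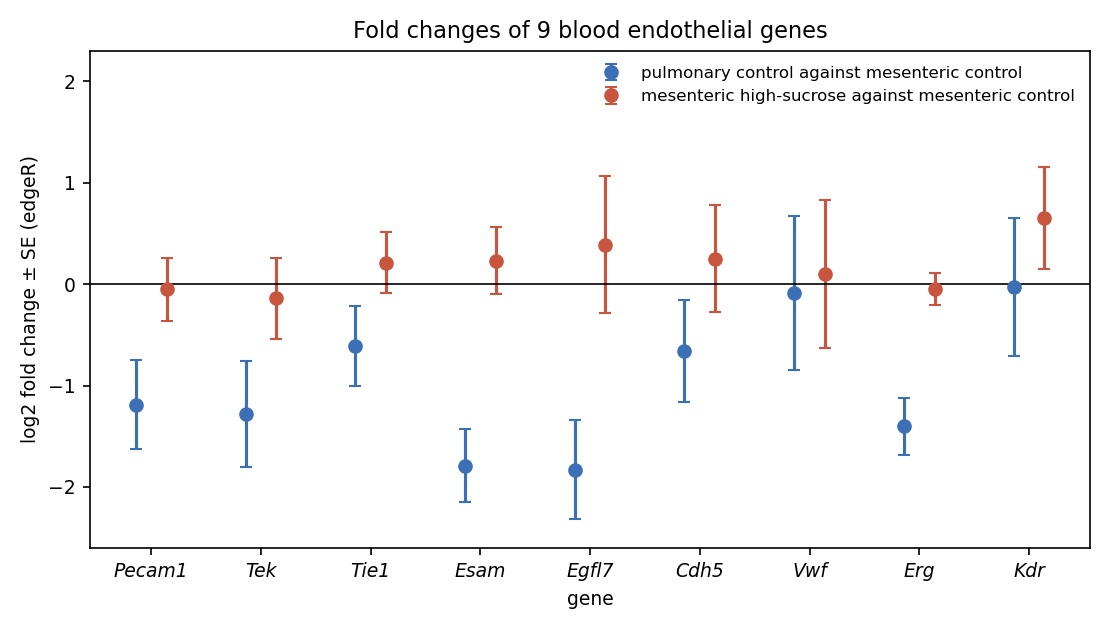
Log2 fold change with its standard error (edgeR) for the 9 genes, pulmonary control against mesenteric control in blue and mesenteric high-sucrose against mesenteric control in red. In the pulmonary comparison Esam and Egfl7 lie lowest (−1.79 and −1.83) and Kdr and Vwf at about 0 (−0.03 and −0.09). The high-sucrose values run from −0.14 for Tek to 0.65 for Kdr, and both comparisons share the mesenteric controls.

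Markers of other cell types differed between the same libraries. Contractile genes of smooth muscle summed to 25535, 26782 and 4586 CPM in pulmonary replicates 1, 2 and 4, against 54909, 15985 and 42829.8 CPM in mesenteric control replicates 1, 2 and 3. Of the 12 contractile genes tested, 10 were lower in pulmonary artery, with a median log2 fold change of −0.90. In edgeR 0 passed and 3 were at an unadjusted p under 0.05 (8.53% of all genes), and DESeq2 called 1, Actg2 (2.85% of all genes). Of 10 fibroblast genes 9 had negative values (median −0.50) and 3 lay wholly below mesenteric control (7.59% of all genes did). Of these 10 genes 0 passed in edgeR and 1, Dpt, in DESeq2 (2.85% of all genes). The fibroblast sum was 8085, 7030.1 and 1682 CPM in pulmonary artery, against 8330.4, 14689 and 8379 CPM in mesenteric control. Mitochondrial genes took 13.9%, 20.1% and 27.1% of the counts in pulmonary replicates 1, 2 and 4, against 12.8%, 16.7% and 15.1% in mesenteric control, and replicate 4 was the lowest library for 5 of the 9 members. All 9 tested lymphocyte markers had positive values (median 4.03), with 0 past the test in edgeR, 0 in DESeq2 and 5 at an unadjusted p under 0.05 (8.53% of all genes). The lymphocyte sum stood at 37.3, 21.3 and 2151 CPM in pulmonary replicates 1, 2 and 4. The 8 lymphatic endothelial genes summed to 238, 203 and 174 CPM in those libraries, against 469, 1140.5 and 264 CPM in mesenteric control. Their part in the members' values was not tested. With mesenteric control replicate 2 and pulmonary replicate 4 both left out, a setting added after seeing the data, the median of the members was −0.91, and Erg stood at −1.22, Esam at −1.81 and Vwf at 1.14.

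The sucrose comparison asked whether mesenteric artery differs between offspring of sucrose-drinking and control dams. No member separated the groups: in all 9 the high-sucrose libraries overlapped the controls, where 3.33% of all genes lay wholly lower and 2.66% wholly higher. In edgeR 0 members passed (0.00% of 13995 genes passed) and 0 were at an unadjusted p under 0.05 (1.99% of all genes, 1.13% lower). DESeq2 called 0 members, against 0.0214% of all genes (0.00715% lower). The median log2 fold change of the 9 members was 0.21, against 0 over all genes tested, with 6 positive and 3 negative values (49.7% of all genes were negative). Without high-sucrose replicate 3 the median was −0.26 and 7 members were negative, and without mesenteric control replicate 1 it was −0.01.

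Erg, the ETS factor, was nearly level. It reached 87.6, 83.5 and 90.9 CPM in high-sucrose libraries 1, 2 and 3, against 102, 83.3 and 88.0 CPM in mesenteric control replicates 1, 2 and 3. The log2 fold change was −0.05 ± 0.16 (SE, edgeR adjusted p = 1.00). Pecam1 was at 669.8, 679 and 957 CPM in the high-sucrose and at 554, 789.6 and 1064 CPM in the control libraries, a log2 fold change of −0.05 ± 0.31 (SE). Esam was at 202, 172 and 326 CPM in high-sucrose artery, against 154, 169 and 277 CPM in control (0.23 ± 0.33 on the log2 scale). In each of these genes the means differed by less than the larger of the group SDs.

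Kdr had the largest log2 fold change of the set, 0.65 ± 0.50 (SE, edgeR adjusted p = 1.00). It reached 32.5, 60.0 and 38.5 CPM in high-sucrose libraries 1, 2 and 3, against 24.2, 47.6 and 11.9 CPM in mesenteric control replicates 1, 2 and 3. Mesenteric control replicate 2 lay above high-sucrose replicates 1 and 3, so the groups overlapped. The value was 1.29 without mesenteric control replicate 2 and 0.28 without mesenteric control replicate 3.

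Tek was at 136, 151 and 272 CPM in high-sucrose artery, against 124, 199 and 295 CPM in control (log2 fold change −0.14 ± 0.40 SE). Tie1 was at 173, 146 and 213 CPM, against 104, 143 and 215 CPM in control (0.21 ± 0.30 SE). Each receptor had its highest values in replicate 3 of both groups.

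Egfl7 reached 245, 87.2 and 491 CPM in high-sucrose libraries 1, 2 and 3, against 113, 369 and 147 CPM in control (0.39 ± 0.68 SE on the log2 scale). Cdh5 was at 114, 63.5 and 214 CPM, against 57.3, 165 and 108 CPM in control (0.25 ± 0.53 SE). Vwf was at 766, 238 and 1511 CPM, against 378, 1413 and 547 CPM in control (0.10 ± 0.73 SE). For each of these genes high-sucrose replicate 3 was the highest mesenteric library and mesenteric control replicate 2 the next. Without high-sucrose replicate 3 the log2 fold changes were −0.35 for Egfl7, −0.32 for Cdh5 and −0.65 for Vwf, and without mesenteric control replicate 2 they were 1.10, 0.68 and 0.88.

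The members differed in how much they varied between libraries of the same artery. Over the 6 mesenteric libraries the coefficient of variation of Erg was 7.88%, and 3.69% of 12711 genes at a mean log2 CPM of at least 1 had a lower one, whose median was 22.0%. At the other end stood Vwf with 66.3% and Egfl7 with 66.1%, above 95.9% and 95.8% of these genes. Pecam1 (24.5%), Tie1 (26.3%), Esam (32.1%), Tek (36.9%), Kdr (47.6%) and Cdh5 (50.1%) lay between them. The highest mesenteric level was 1.23 times the lowest for Erg and 6.35 times the lowest for Vwf.

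Within mesenteric artery the members fell into sets by which libraries were high. Pecam1 and Tek shared the same order of all 6 libraries, with mesenteric control replicate 3 and high-sucrose replicate 3 highest and mesenteric control replicate 1 lowest. Tie1 and Esam had the same 2 libraries at the top and the same library at the bottom. Egfl7 and Vwf shared another order of all 6, from high-sucrose replicate 3 through mesenteric control replicate 2 to high-sucrose replicate 2. Cdh5 differed from that order only in its last 2 libraries. Erg and Kdr followed neither order: Erg was highest in mesenteric control replicate 1, and Kdr was highest in high-sucrose replicate 2 and lowest in mesenteric control replicate 3. These sets were noticed in the data and are a description with no test.

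**Figure D3:**
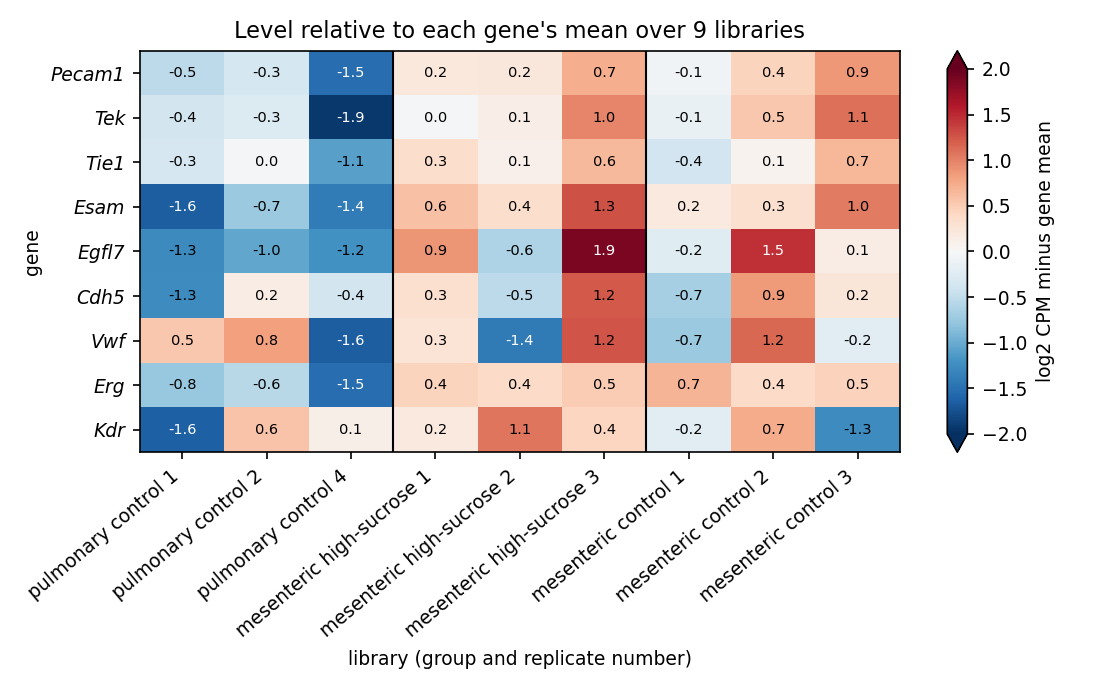
Log2 CPM of each gene minus its own mean over the 9 libraries, with libraries grouped as pulmonary control, mesenteric high-sucrose and mesenteric control and the value written in each cell. Pecam1, Tek, Tie1 and Esam are highest in mesenteric control replicate 3 and high-sucrose replicate 3, Egfl7, Cdh5 and Vwf in high-sucrose replicate 3 and mesenteric control replicate 2, and Erg is nearly level across mesenteric artery. The colour scale ends at −2 and 2.

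Markers of other cells were set beside these orders. The contractile sum was 30859, 37322 and 24192 CPM in high-sucrose replicates 1, 2 and 3, against 54909, 15985 and 42829.8 CPM in mesenteric control replicates 1, 2 and 3. High-sucrose replicate 3 and mesenteric control replicate 2, the libraries highest in Egfl7, Cdh5 and Vwf, thus had the lowest contractile sums. The 7 venous genes summed to 717, 404 and 796 CPM in the high-sucrose libraries, against 406, 764 and 605 CPM in control. From highest to lowest, these sums had the order of Egfl7 and Vwf. The 12 arterial genes, at 3059.7, 3255 and 2604 CPM against 2976, 2979.5 and 2897 CPM in control, did not. Both lists were set here after their values were seen. Platelet markers summed to 70.0, 72.2 and 48.7 CPM in the high-sucrose libraries, against 81.7, 174 and 32.1 CPM in control, with the platelet chemokine Pf4 at 88.6 CPM in mesenteric control replicate 2 and at 17.0 CPM in high-sucrose replicate 3. The platelet glycoprotein Gp1bb had no counts in any library. The 2 red cell genes found summed to 411, 190.2 and 3627 CPM in the high-sucrose libraries, against 2116, 2535 and 2733 CPM in control. The part of these cells in the members' values was not tested.

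Other genes known from blood endothelium, 30 of a list of 32 found and tested, were described in the same way. In pulmonary artery 27 of 30 had a negative log2 fold change (median −0.91, against 0.06 over all genes) and 7 did not overlap on the lower side (7.59% of all genes). In edgeR 0 passed, with 9 at an unadjusted p under 0.05 (8.53% of all genes). DESeq2 called 2, Clec14a and Tal1, both lower, where it called 2.85% of all genes. The largest absolute values were those of Myct1, an endothelial membrane protein, at −2.03 ± 0.76 (SE), Clec14a, a lectin-like receptor of endothelium, at −1.81 ± 0.47, and Tal1, a transcription factor of blood and endothelium, at −1.54 ± 0.40. Without mesenteric control replicate 2, Myct1 stood at −0.78 (−2.46 to −0.78 over the single libraries left out) and Clec14a at −1.18. Clec14a was at 23.9, 32.2 and 23.6 CPM in the pulmonary libraries, against 48.6, 155 and 72.6 CPM in mesenteric control. Between high-sucrose and control mesenteric artery the same list had 22 positive and 8 negative values (median 0.21), with 0 past the test in edgeR, 0 in DESeq2 and 0 at an unadjusted p under 0.05. Gpr4, a proton-sensing receptor, stood at 0.99, Plvap, which forms the diaphragms of fenestrae, at 0.87 and Nos3, the endothelial nitric oxide synthase, at 0.57, and without high-sucrose replicate 3 these were −0.09, 0.00 and −0.10.

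Ligands and partners of the receptors were followed with 12 tested genes. In pulmonary artery 8 had negative and 4 positive values (median −0.81), and in edgeR 0 passed and 4 were at an unadjusted p under 0.05 (8.53% of all genes). DESeq2 called 1, Svep1 (2.85% of all genes). Svep1, a matrix protein that binds Tie1 in mouse, reached 48.7, 75.8 and 17.3 CPM in pulmonary libraries 1, 2 and 4, against 152, 185 and 228 CPM in mesenteric control (−2.01 ± 0.52 SE, edgeR adjusted p = 0.411, DESeq2 0.0193). Angpt1, the activating ligand of Tek, was at 14.8, 10.5 and 4.58 CPM, against 23.0, 37.3 and 24.2 CPM in mesenteric control (−1.51 ± 0.47 SE, edgeR adjusted p = 0.483). Angpt4 stood at −1.69 ± 0.74 (SE). The pulmonary libraries lay wholly below the mesenteric controls for these 3 of the 12 genes, where 7.59% of all genes did. Pgf, a ligand of VEGF receptors, lay wholly above them (6.41% of all genes), with 7.37, 10.5 and 6.65 CPM in pulmonary artery, against 2.02, 5.25 and 2.99 CPM in mesenteric control (1.25 ± 0.49 SE, unadjusted p = 0.041, edgeR adjusted p = 0.563).

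Angpt1 was also the ligand with the lowest value in the sucrose comparison. It reached 14.2, 9.68 and 19.9 CPM in high-sucrose libraries 1, 2 and 3, below all of the mesenteric controls (23.0, 37.3 and 24.2 CPM). Its log2 fold change was −0.94 ± 0.33 (SE, unadjusted p = 0.0220, edgeR adjusted p = 1.00), and 3.33% of all genes tested lay wholly below control. The same mesenteric controls enter both comparisons of Angpt1. Fibroblast genes had lower values beside it: 9 of 10 were negative (median −0.42), 0 passed in edgeR or DESeq2, and 3 were at an unadjusted p under 0.05 (1.99% of all genes). Clec3b (−0.60), Col14a1 (−0.56) and Pi16 (−0.93) lay wholly below control. The fibroblast sum was 8509, 6298 and 8556 CPM in the high-sucrose libraries, against 8330.4, 14689 and 8379 CPM in control, and its part in the Angpt1 and Angpt4 values was not tested. Angpt4 was also wholly below control in the high-sucrose libraries (−0.68 ± 0.41 SE, and −0.30 without high-sucrose replicate 2), and Nrp2, a VEGF-C co-receptor, stood at 0.69 ± 0.45.

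Of 20 endothelial transcription factors tested, 15 had negative and 5 positive values in pulmonary artery (median −0.58). In edgeR 0 passed and 3 were at an unadjusted p under 0.05 (8.53% of all genes). DESeq2 called 3, Klf4, Nr2f2 and Tal1, where it called 2.85% of all genes. Nr2f2, the factor of venous identity known as COUP-TFII, was at 31.3, 56.5 and 39.4 CPM in pulmonary artery, against 148, 203 and 128 CPM in mesenteric control (−1.91 ± 0.32 SE). Its adjusted p was 0.173 by edgeR and 5.91e-05 by DESeq2. Klf4, a shear-stress factor that is also made in other wall cells, stood at −2.03 ± 0.62 (SE), and at −1.07 without mesenteric control replicate 3 (−2.40 to −1.07 over the single libraries left out). Between high-sucrose and control artery 14 were positive and 6 negative (median 0.09), with Sox18 at 0.55, Hey1 at 0.51 and Elk3 at 0.47, and 0 past the test in edgeR, 0 in DESeq2 and 0 at an unadjusted p under 0.05. Without high-sucrose replicate 3, Sox18 was at −0.41 and Elk3 at −0.07.

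Junction genes beside the members were mixed. Of 15 tested in the pulmonary comparison, 10 had negative and 5 positive values (median −0.35). In edgeR 0 passed and 7 were at an unadjusted p under 0.05 (8.53% of all genes). DESeq2 called 2, Cgn and Jup, where it called 2.85% of all genes. Jup, the plakoglobin of adherens junctions and desmosomes, was higher at 63.9, 109.7 and 63.6 CPM in pulmonary artery, against 26.1, 22.5 and 24.9 CPM in mesenteric control (1.69 ± 0.27 SE, edgeR adjusted p = 0.159, DESeq2 7.11e-05). Cgn, a tight junction protein of epithelia and mesothelia, was at 9.19, 1.93 and 13.7 CPM, against 0.740, 0.258 and 0.467 CPM in mesenteric control (4.07 ± 0.88 SE). Msln, a mesothelial marker, was at 50.7, 9.17 and 137 CPM in those pulmonary libraries and at or below 0.344 CPM in mesenteric control. Heart muscle markers summed to 1083, 22553 and 1925 CPM in the same pulmonary libraries, against 82.7, 33.6 and 54.1 CPM in mesenteric control. The part of mesothelium or heart muscle in the Jup and Cgn values was not tested. Gja4, a gap junction gene of arterial endothelium, stood at −1.93 ± 0.70 (SE), with mesenteric control replicate 2 (10.5 CPM) below the pulmonary libraries (11.8 to 18.5 CPM). Under prenatal sucrose 7 junction genes were positive and 7 negative (median 0.02). In edgeR 0 passed and 0 were at an unadjusted p under 0.05, and DESeq2 called 0. The values were led by Gja1 at 0.64 (0.14 to 0.88 over the single libraries left out), Jup at 0.30 and Cdh2 at −0.27. Tjp1 (0.23) lay wholly above control, where 2.66% of all genes did.

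Genes of the Vwf granule and of the clotting surface had 9 negative and 4 positive values of 13 tested in pulmonary artery (median −0.27). In edgeR 0 passed and 1 was at an unadjusted p under 0.05 (8.53% of all genes). DESeq2 called 1, Edn1 (2.85% of all genes). Edn1, the vasoconstrictor endothelin stored with Vwf, was at 18.2, 18.3 and 8.84 CPM in pulmonary artery, against 24.2, 218 and 101 CPM in mesenteric control (−2.95 ± 0.79 SE, edgeR adjusted p = 0.420, DESeq2 0.00807). Procr, the protein C receptor, stood at −1.40 ± 0.88 (SE), and at −0.19 without mesenteric control replicate 2 (−1.95 to −0.19 over the single libraries left out). For high-sucrose against control, Adamts13, the protease that cuts Vwf, stood at −1.03 ± 0.65 (−0.28 without mesenteric control replicate 2) and Selp, the selectin stored with Vwf, at −0.48 ± 0.80 (SE), with 7 genes positive, 6 negative, 0 past the test in edgeR, 0 in DESeq2 and 0 at an unadjusted p under 0.05.

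**Figure D4:**
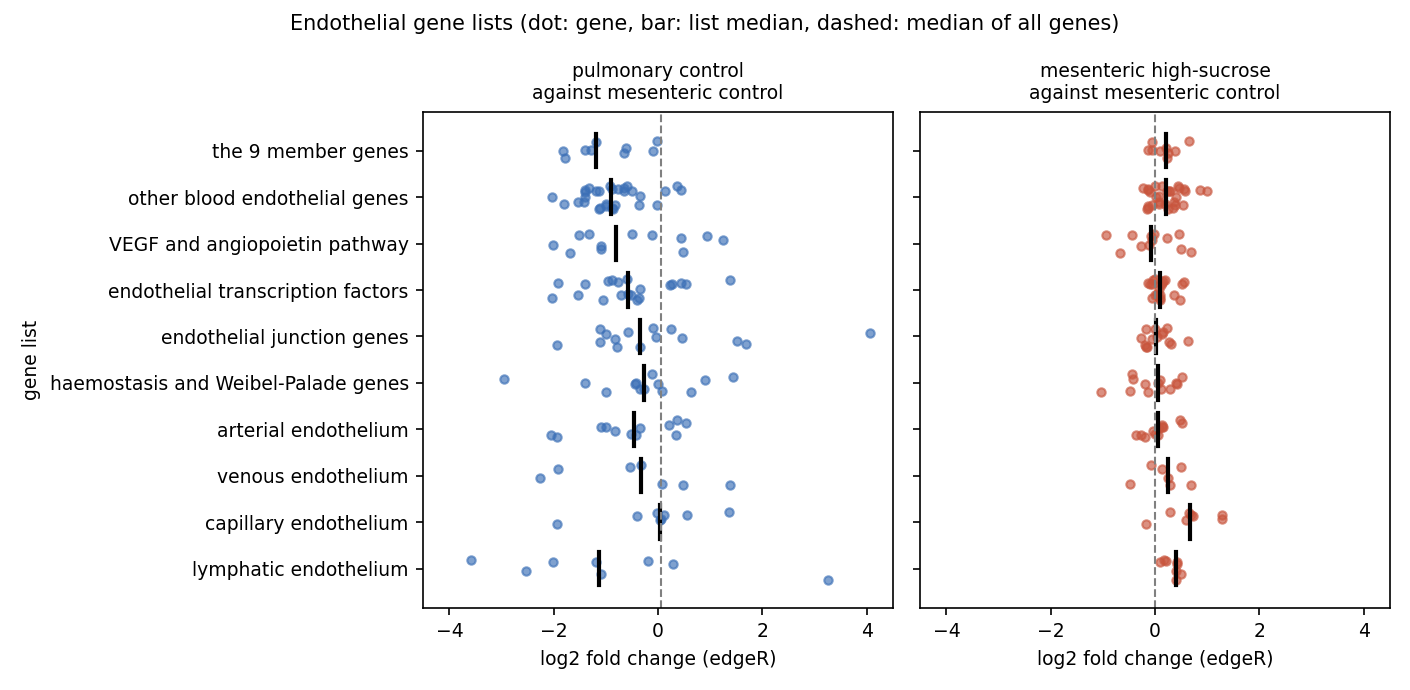
Log2 fold changes (edgeR) of single genes in 10 endothelial lists, pulmonary control against mesenteric control on the left and mesenteric high-sucrose against mesenteric control on the right, with a black bar at each list's median and a dashed line at the median of all genes tested. In the pulmonary comparison the medians of the 9 member genes and of other blood endothelial genes are −1.19 and −0.91, and that of capillary genes is 0.04. In the sucrose comparison the capillary list has the highest median, 0.67.

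Lists of endothelial subtypes had 0 genes past the edgeR test in pulmonary artery. Its unadjusted p was under 0.05 for 2 of 12 arterial, 2 of 7 venous and 2 of 8 capillary genes. The same level was reached by 4 of 8 lymphatic genes and by 8.53% of all genes tested. DESeq2 called 0 arterial and 0 capillary genes, 1 venous gene (Nr2f2, lower) and 3 lymphatic genes, where it called 2.85% of all genes. Of these lymphatic genes Mmrn1 and Reln were lower (−3.58 and −2.53) and Sema3d was higher (3.25). Without both libraries lowest in contractile genes the edgeR adjusted p of the arterial gene Gja4 was 0.0395, within a range of 0.0395 to 0.991 over the alternatives. This setting was added after seeing the data, and it leaves out mesenteric control replicate 2. Gja4 was at 73.9, 10.5 and 78.3 CPM in mesenteric control replicates 1, 2 and 3, where the contractile sum was 54909, 15985 and 42829.8 CPM. The part of smooth muscle in the Gja4 values was not tested. The median log2 fold change was −0.47 over 12 arterial genes, −0.33 over 7 venous genes, 0.04 over 8 capillary genes and −1.14 over 8 lymphatic genes. In the sucrose comparison the medians were 0.06, 0.25, 0.67 and 0.41, with 0 past the test in edgeR and 0 in DESeq2. There 1 gene, Ednrb of the capillary list, was at an unadjusted p under 0.05 (1.99% of all genes). It was at 22.1, 18.6 and 12.6 CPM in the high-sucrose libraries, against 4.71, 12.3 and 4.76 CPM in control (1.29 ± 0.45 SE). Ednrb thus lay wholly above control, where 2.66% of all genes did. Kdr itself is in the capillary list. Adipocyte genes had higher values beside the capillary ones in high-sucrose artery: 7 of 8 were positive (median 0.56), led by Cidec (1.18) and Pck1 (0.93), and Fabp4 (0.73) is in both lists. Their sum was 877, 1865 and 1425 CPM in the high-sucrose libraries, against 799, 1103 and 900.5 CPM in control, and their part in the capillary values was not tested. The 2 capillary genes at an unadjusted p under 0.05 in pulmonary artery, Rgcc and Tmem100, went opposite ways. Rgcc, the first capillary gene of the list, was at 15.3, 62.0 and 43.6 CPM in pulmonary artery, against 10.2, 16 and 21.2 CPM in mesenteric control (1.35 ± 0.55 SE). Tmem100 was at 24.8, 26.7 and 9.23 CPM, wholly below the 42.7, 132 and 55.5 CPM of mesenteric control (−1.94 ± 0.58 SE). Lyve1, a hyaluronan receptor of lymphatics and some macrophages, stood at −1.19 ± 0.70 in pulmonary artery.

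The genes whose levels ran most like the mean of the 9 members over the 9 libraries were looked up among genes with a symbol and a mean log2 CPM of at least 1. By Pearson's r over 9 libraries of 3 groups, which share the step between arteries, the first 8 were Sncaip (0.983), Ifrd1 (0.980), Tnfrsf10b (0.977), Myrip (0.972), Pear1 (0.970), Ndufa7 (0.967), Rapgef3 (0.967) and Wbp1l (0.966). None of these was in the lists above. Pear1, a receptor of platelets and endothelium, was at 37.0, 61.9 and 32.6 CPM in pulmonary artery, at 91.9, 77.6 and 124 CPM in high-sucrose mesenteric artery and at 78.6, 129.8 and 105 CPM in mesenteric control. Myrip, which links secretory granules to the cytoskeleton, was at 30.2, 49.1 and 10.5 CPM in pulmonary artery, at 83.5, 47.7 and 140.4 CPM in high-sucrose and at 43.2, 139 and 74.8 CPM in mesenteric control artery. The r values are a description, since the genes were picked for them.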

How the data were processed

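Each library came with its own gene table of raw counts (whole numbers), as deposited by the authors. The genome build was rn7 per the submitters' processing notes. RNA was enriched with oligo(dT) and the second strand was marked, per the labels' protocols. For aligner, counting program, annotation and counted strand nothing is given in the sources used, so antisense or overlapping transcripts are not separable. Features (30452 lines, 7092 of them named by an Ensembl identifier) were each kept as a line of their own.

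The treatment labels C and H were read as the control and high-sucrose groups of the design text. The tests came from edgeR 4.0.16 (R 4.3.3), by its quasi-likelihood method (TMM factors, filterByExpr, robust), on the 6 libraries of each comparison, with Benjamini-Hochberg adjustment over all genes tested and a threshold of 0.05. All 9 members passed the filter in both comparisons. Standard errors were obtained by dividing each log2 fold change by the root of its F value. For levels, CPM used library totals times TMM factors from the 9 libraries together, and log2 CPM uses a prior count of 2. DESeq2 1.42.0, limma-voom (limma 3.58.1) with quality weights, other scalings and filters, and leaving out libraries served as alternatives. The script was tested on simulated data, with 50 genes changed at each fold and the same threshold. In the pulmonary comparison 0 of 50 genes were recovered at 2-fold, 3 at 4-fold and 22 at 8-fold. For the sucrose comparison these were 2, 38 and 44. A gene that did not pass is therefore not shown to be unchanged.

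The members and the lists were chosen with earlier results of these data known. Named genes are the members, the 3 largest absolute log2 fold changes of each of the 5 pathway lists per comparison at a mean log2 CPM of at least 1, the first 2 genes of each list of another cell type, of which those bearing on a result are printed, and the 8 genes most like the members by r. A gene that the rule names is not reported here. Genes outside this rule (Pf4, Gp1bb, Pgf, Clec3b, Col14a1, Pi16, Cidec, Pck1, Fabp4, Mmrn1, Reln, Sema3d, Actg2, Dpt, Tmem100, Tjp1, Ednrb) were chosen after their values were seen. Of the genes in the 21 lists, 201 of 219 were found by symbol and the others are not analysed here. No libraries of the same group agreed within counting error (chi-square over its degrees of freedom, 42.5 to 312). Nothing in the labels says that libraries of a group came from separate animals, so p-values measure only the spread between these samples, which may be technical. Intervals of counting error cover counting error only.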

Additional observations from a re-analysis of the deposited data

How the results depend on the processing

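In pulmonary against mesenteric control artery 0 members passed in edgeR and 3 in DESeq2 (2 genes in all with edgeR, 408 with DESeq2, 33 with limma-voom, 38 with all 9 libraries in 1 fit, 22 without pulmonary replicate 4, 0 without any other single library, and 105 without both libraries lowest in contractile genes). The cause of these differences was not tested. In the sucrose comparison 0 genes were called with edgeR and 3 with DESeq2, none of them a member. Over the alternatives the adjusted p ran from 0.00416 to 0.921 for Erg, from 0.00153 to 0.83 for Esam and from 0.0254 to 0.945 for Egfl7.

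With 1 library left out, members passing stayed at 0 in both comparisons, and the median log2 fold change ran from −1.41 to −0.90 in the pulmonary and from −0.26 to 0.36 in the sucrose comparison. The sign changed with single libraries for Kdr (−0.47 to 0.62) and Vwf (−0.49 to 0.69) in the pulmonary comparison. In the sucrose comparison it changed for Pecam1 (−0.27 to 0.20), Erg (−0.10 to 0.03), Esam (−0.10 to 0.54), Egfl7 (−0.35 to 1.10), Cdh5 (−0.32 to 0.68), Tie1 (−0.01 to 0.53), Tek (−0.53 to 0.21), Vwf (−0.65 to 0.88), Elk3 (−0.07 to 0.81), Gpr4 (−0.09 to 1.57), Nos3 (−0.10 to 0.83), Sox18 (−0.41 to 0.93) and Selp (−0.97 to 0.95), and Plvap ran from 0.00 to 2.49. Where a group was left with 1 library, that library is assumed to vary like the others.

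With limma-voom, Kdr was at 0.03 and Vwf at 0.62 in the pulmonary comparison and Selp at 0.08 in the sucrose comparison. With replicate 1 standing alone for pulmonary artery, Vwf was at 0.21. Without both libraries lowest in contractile genes, a setting added after seeing the data, Kdr was at 0.52, Vwf at 1.14 and Procr at 0.23 in the pulmonary comparison, and Esam at −0.20, Adamts13 at 0.01 and Sox18 at −0.19 in the sucrose comparison. The cause was not tested.

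The replicate numbers are shared between groups, and the labels do not say whether they pair the samples. The correlation of same-numbered deviations across genes was 0.196, −0.277 and 0.12 for high-sucrose and control replicates 1, 2 and 3. It was 0.169 and −0.169 for pulmonary and mesenteric control replicates 1 and 2. Not every library correlated best with its own number. Attached tissue also enters these deviations, so they cannot show whether same-numbered libraries share an animal or litter. With the number as a block, the pulmonary median was −0.66, Vwf was at 0.46 and 36 genes were called. In the sucrose comparison the blocked median was 0.23 and Selp was at 0.20, with 0 genes called. Kdr, at 110 counts in its lowest library, is the member whose values depth limits most.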
